A study of Homo sapiens with 16 samples.

Results

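The 53 genes described here encode the secretory machinery of the endoplasmic reticulum (ER) and the sensors and targets of the unfolded protein response (UPR). They were taken by symbol from a fixed list of names, which was chosen with earlier results of these data known. They are 53 of the 23354 genes in the count table. All 53 passed the filter on low counts, which left 14215 genes for testing. They fall into 10 groups by role, namely 9 chaperones and cofactors, 4 protein disulfide isomerases, 3 lectin chaperones with their glycoprotein check, 10 genes of ER-associated degradation (ERAD), 3 UPR sensors, 10 translocation genes, 3 signal peptidase subunits, 4 oligosaccharyltransferase subunits, 6 genes of ER to Golgi transport and the B cell cochaperone MZB1.

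RNA-seq was performed in MM1S and MM1R, human multiple myeloma cell lines of which MM1S is sensitive and MM1R resistant to glucocorticoids. Cells of each line were kept for 48 h with vehicle, with TAK-981 at 0.1 μM, with dexamethasone (Dex) at 1 μM or with both drugs at these doses (combo), which makes 8 groups of 2 libraries. TAK-981 (TAK) is an inhibitor of the enzyme that activates SUMO for conjugation to proteins, Dex is a synthetic glucocorticoid that acts through the glucocorticoid receptor (gene NR3C1), and the design asks how the inhibitor alters the response to Dex in either line. Nothing in the labels says that the duplicates were separate cultures, so p-values measure only the spread between these libraries, which may be technical. That spread is 1 estimate per gene pooled over the 8 groups, not the spread of the groups compared. Each line is a single model of the disease.

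Plasma cells and the myeloma cells that derive from them secrete immunoglobulin, and they depend on a large ER. Proteins enter the ER through the SEC61 channel, lose their signal peptide, gain N-linked glycans and are folded by chaperones, and proteins that fail are sent to the proteasome by ERAD. When misfolded proteins accumulate, the sensors IRE1 (ERN1), ATF6 and PERK (EIF2AK3) start the UPR, and the transcription factors ATF6 and spliced XBP1 act on promoters that carry the ER stress response element (ERSE), its variant ERSE-II or the unfolded protein response element (UPRE).

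Promoter sequence was read from RefSeq windows of 300 bases, 250 before and 50 after each transcript start, on GRCh38.p14. A window was found for 46 of the 53 genes. Both strands were searched for ERSE as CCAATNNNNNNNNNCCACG, for ERSE-II as ATTGGNCCACG and for UPRE as TGACGTGG. An ERSE was found in 6 genes (CALR, CANX, CRELD2, HSP90B1, HSPA5 and PDIA6), which is 13% of the 46, against 0.0916% of 27305 genes with a window. An ERSE-II was found in 3 (HERPUD1, HYOU1 and SDF2L1), 6.52% against 0.0696%. UPRE was found in 5 (HYOU1, KDELR3, SEC62, SSR3 and SSR4), 10.9% against 0.927%, and the UPRE of HYOU1 overlaps 1 of its ERSE-II matches. The 250 bases before the start are given for 6 genes that recur in the results, with the matches to ERSE or ERSE-II in capitals, read 5′ to 3′ on the strand of the gene. HSPA5 (chr9:125241344-125241593, minus strand), HSP90B1 (chr12:103930160-103930409, plus strand) and CALR (chr19:12938359-12938608, plus strand) carry ERSE, with 2 matches in HSP90B1. HERPUD1 (chr16:56931892-56932141, plus strand), SDF2L1 (chr22:21642052-21642301, plus strand) and HYOU1 (chr11:119057206-119057455, minus strand) carry ERSE-II, with 2 matches in HYOU1. A match is a description of these letters and not of factor binding. The list was chosen to include UPR targets and the 27305 genes include the 46, so the higher shares are not a test.
HSPA5: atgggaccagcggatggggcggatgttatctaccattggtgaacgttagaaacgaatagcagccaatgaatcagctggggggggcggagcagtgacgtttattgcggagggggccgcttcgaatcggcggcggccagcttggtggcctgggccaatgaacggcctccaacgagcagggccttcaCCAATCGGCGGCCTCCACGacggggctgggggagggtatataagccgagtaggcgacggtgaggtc
HSP90B1: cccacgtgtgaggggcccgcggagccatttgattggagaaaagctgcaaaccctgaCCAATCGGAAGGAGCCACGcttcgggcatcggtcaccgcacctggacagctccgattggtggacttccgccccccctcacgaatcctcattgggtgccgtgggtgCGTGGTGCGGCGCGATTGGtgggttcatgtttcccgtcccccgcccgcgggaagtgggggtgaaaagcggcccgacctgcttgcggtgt
CALR: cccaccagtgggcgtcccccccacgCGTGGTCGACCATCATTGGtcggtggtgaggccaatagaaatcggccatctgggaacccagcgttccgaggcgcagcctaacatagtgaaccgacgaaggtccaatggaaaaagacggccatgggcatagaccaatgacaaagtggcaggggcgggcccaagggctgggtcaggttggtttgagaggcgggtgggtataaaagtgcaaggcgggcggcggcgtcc
HERPUD1: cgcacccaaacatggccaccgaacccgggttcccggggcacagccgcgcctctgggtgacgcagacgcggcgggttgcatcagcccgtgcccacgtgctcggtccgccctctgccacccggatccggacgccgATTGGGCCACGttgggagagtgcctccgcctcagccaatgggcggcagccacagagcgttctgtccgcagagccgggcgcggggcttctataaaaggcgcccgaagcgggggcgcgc
SDF2L1: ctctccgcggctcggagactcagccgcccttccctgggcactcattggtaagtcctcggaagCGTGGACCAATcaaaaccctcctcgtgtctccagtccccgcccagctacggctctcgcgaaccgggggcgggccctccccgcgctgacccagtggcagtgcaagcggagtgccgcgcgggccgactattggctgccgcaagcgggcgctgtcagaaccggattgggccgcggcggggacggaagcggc
HYOU1: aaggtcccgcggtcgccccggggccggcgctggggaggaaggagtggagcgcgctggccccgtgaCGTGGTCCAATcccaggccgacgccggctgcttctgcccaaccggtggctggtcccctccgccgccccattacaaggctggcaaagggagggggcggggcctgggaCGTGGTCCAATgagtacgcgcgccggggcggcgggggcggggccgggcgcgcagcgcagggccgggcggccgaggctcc

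Total counts per library ranged from 15707587 to 24796539. Levels are given as CPM, counts per 1e6 counts after TMM scaling of the library sizes, so each is relative to all other RNA in the library, and in these bulk samples fewer cells of a type and less RNA per cell cannot be told apart. NR3C1 was at 280 ± 4.35 CPM in vehicle-treated MM1S and 18.9 ± 1.41 CPM in vehicle-treated MM1R (SD, n = 2 each), lower in the line labelled resistant. Of 10 plasma cell markers 9 were above 10 CPM in every library, with CD38 the exception, and of 11 markers of other blood cells 9 stayed under 1 CPM everywhere. Of those 11, CD3E reached 5.33 CPM and ITGAM 3.76 CPM, and CD3D was at 0 counts in 16 of 16 libraries. Within every group the duplicates were further apart than read sampling gives. Their chi-square divided by its degrees of freedom was lowest in the MM1R combo group, at 2.15, and highest in the MM1S TAK-981 group, at 22.6. It was 20.4 in the MM1S Dex group. Since the tests pool the spread, p-values may be too small where these 2 MM1S groups are compared and too large within MM1R.

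Without drug several of the 53 genes were among the most abundant transcripts of both lines. Compared per length, as CPM per kilobase of the gene length given in the count table, HSP90B1 (GRP94, the HSP90 of the ER) led in MM1S at 573 ± 19.6 CPM per kb, above 99.7% of the genes tested, followed by CALR (calreticulin) at 511 ± 5.63 CPM per kb and MZB1 (a cochaperone of immunoglobulin assembly) at 443 ± 23.1 CPM per kb (SD, n = 2 each). In MM1R CALR was at 761 ± 15.1 and HSP90B1 at 743 ± 16.3 CPM per kb, and MZB1 again came next at 533 ± 9.04 CPM per kb (SD, n = 2 each). P4HB (a disulfide isomerase) and CANX (calnexin) came next in both lines. At the low end stood EDEM2 (ERAD) at 8.64 ± 0.964 CPM per kb in MM1S and KDELR3 (a receptor that returns ER proteins from the Golgi) at 0.372 ± 0.134 CPM per kb (SD, n = 2 each), the latter above only 12.8% of the genes.

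**Figure D1:**
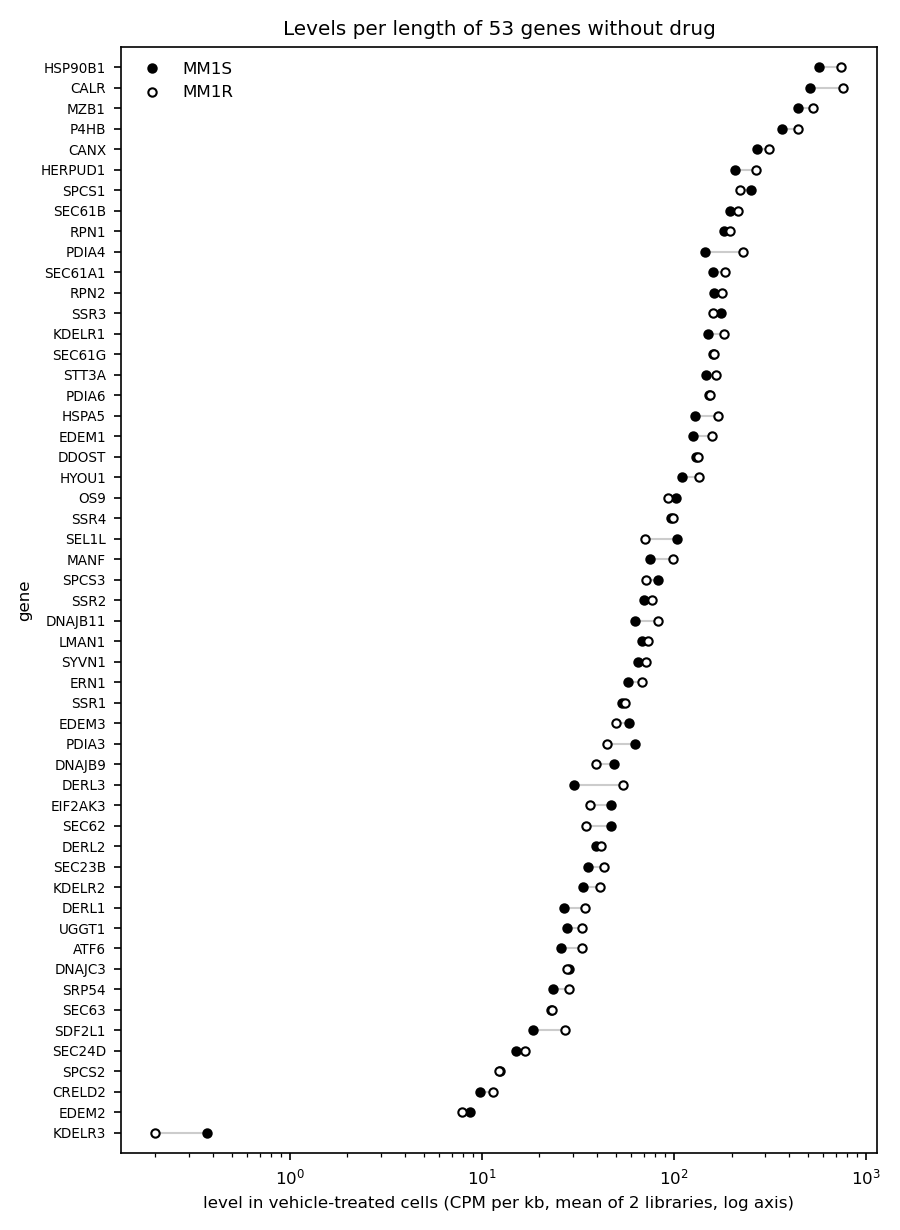
Levels of the 53 genes in vehicle-treated MM1S (filled) and MM1R (open) cells, as the mean CPM per kb of gene length over 2 libraries on a log axis, with genes in order of their mean. HSP90B1 and CALR stand at the top near 573 and 511 CPM per kb in MM1S, and KDELR3 at 0.372 CPM per kb is far below the next gene.

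The untreated lines differed in 31 of the 53 genes, and most of these were higher in MM1R. Of the 53, 24 were higher and 7 lower in MM1R than in MM1S (edgeR quasi-likelihood test, Benjamini-Hochberg adjusted p under 0.05 over all genes, the rule for every call below). Over all genes 25.6% were higher and 22.6% lower. The median log2 difference was 0.15 for the 53 genes and 0.01 for all genes. By role, 6 of 9 chaperones and 3 of 3 lectin chaperone genes were higher, whereas 7 of 10 translocation genes were not called.

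DERL3 (a derlin of ERAD) stood out between the untreated lines, at 107 and 114 CPM in the MM1S libraries and 198 and 199 CPM in the MM1R libraries, a log2 difference of 0.85 (SE 0.06, adjusted p = 9.27e-09). SMARCB1, which overlaps DERL3 on the opposite strand, differed by 0.29 on the log2 scale (adjusted p = 0.000701). PDIA4 (a disulfide isomerase) was at 422 and 433 CPM in MM1S and 670.2 and 684 CPM in MM1R, log2 difference 0.66 (SE 0.07, adjusted p = 5.08e-07). CALR was at 965 and 980.1 CPM in MM1S and 1427 and 1467 CPM in MM1R, log2 difference 0.57 (SE 0.08, adjusted p = 9.41e-06). For these 3 genes both MM1R libraries lay above both MM1S libraries. Here and below, such separation of 2 libraries from 2 others is a description and adds no support to a call. The share of all genes separated in this way was not computed. SDF2L1 (a partner of the cochaperone DNAJB11) was higher by log2 difference 0.55 (SE 0.15, adjusted p = 0.00697), and this call was lost without MM1R vehicle replicate 2 (adjusted p = 0.0824). SEL1L (the scaffold of the ERAD ubiquitin ligase) was lower in MM1R, at 931 and 857 CPM in MM1S and 604 and 605 CPM in MM1R, log2 difference -0.56 (SE 0.06, adjusted p = 1.03e-06). PDIA3 (log2 difference -0.49, adjusted p = 9.3e-06), SEC62 (translocation, -0.43, adjusted p = 0.00134) and the PERK gene EIF2AK3 (-0.37, adjusted p = 1.7e-05) were also lower. SEC62 was at 316 and 299.6 CPM in MM1S and 228 and 230.3 CPM in MM1R. HSPA5, which encodes the ER HSP70 chaperone BiP, was at 513 and 505 CPM in MM1S and 662 and 689 CPM in MM1R, log2 difference 0.41 (SE 0.09, adjusted p = 0.00097).

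TAK-981 lowered most of the 53 genes in either line. In MM1S 33 fell and 7 rose, where 23.7% of all genes fell and 25.2% rose. In MM1R 36 fell and 5 rose, where 27.6% of all genes fell and 25.8% rose. Their median log2 fold change was -0.30 in MM1S and -0.34 in MM1R, and that of all genes 0.04 and 0.00. These sets share no libraries, and the 31 genes that fell in both are 93.9% of the MM1S list and 86.1% of the MM1R list. HERPUD1, EDEM1, OS9 and MZB1 rose in both, 57.1% of the 7 in MM1S and 80% of the 5 in MM1R. These overlaps were not computed over all genes, so they cannot be read as particular to the 53. No call passed an absolute log2 fold change of 1 in either line. The plasma cell markers, MZB1 among them, summed to between 8805 and 8839 CPM in vehicle and between 7984 and 8554 CPM after TAK-981 in MM1S, and to between 11294 and 11359 CPM and between 9666 and 9671 CPM in MM1R. GAPDH, a gene of glycolysis, was at 1664 ± 67.5 CPM in vehicle and 988 ± 79.9 CPM after TAK-981 in MM1S, and at 1995 ± 25.1 CPM and 1196 ± 61.4 CPM in MM1R (SD, n = 2 each). Their part in the result was not tested.

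**Figure D2:**
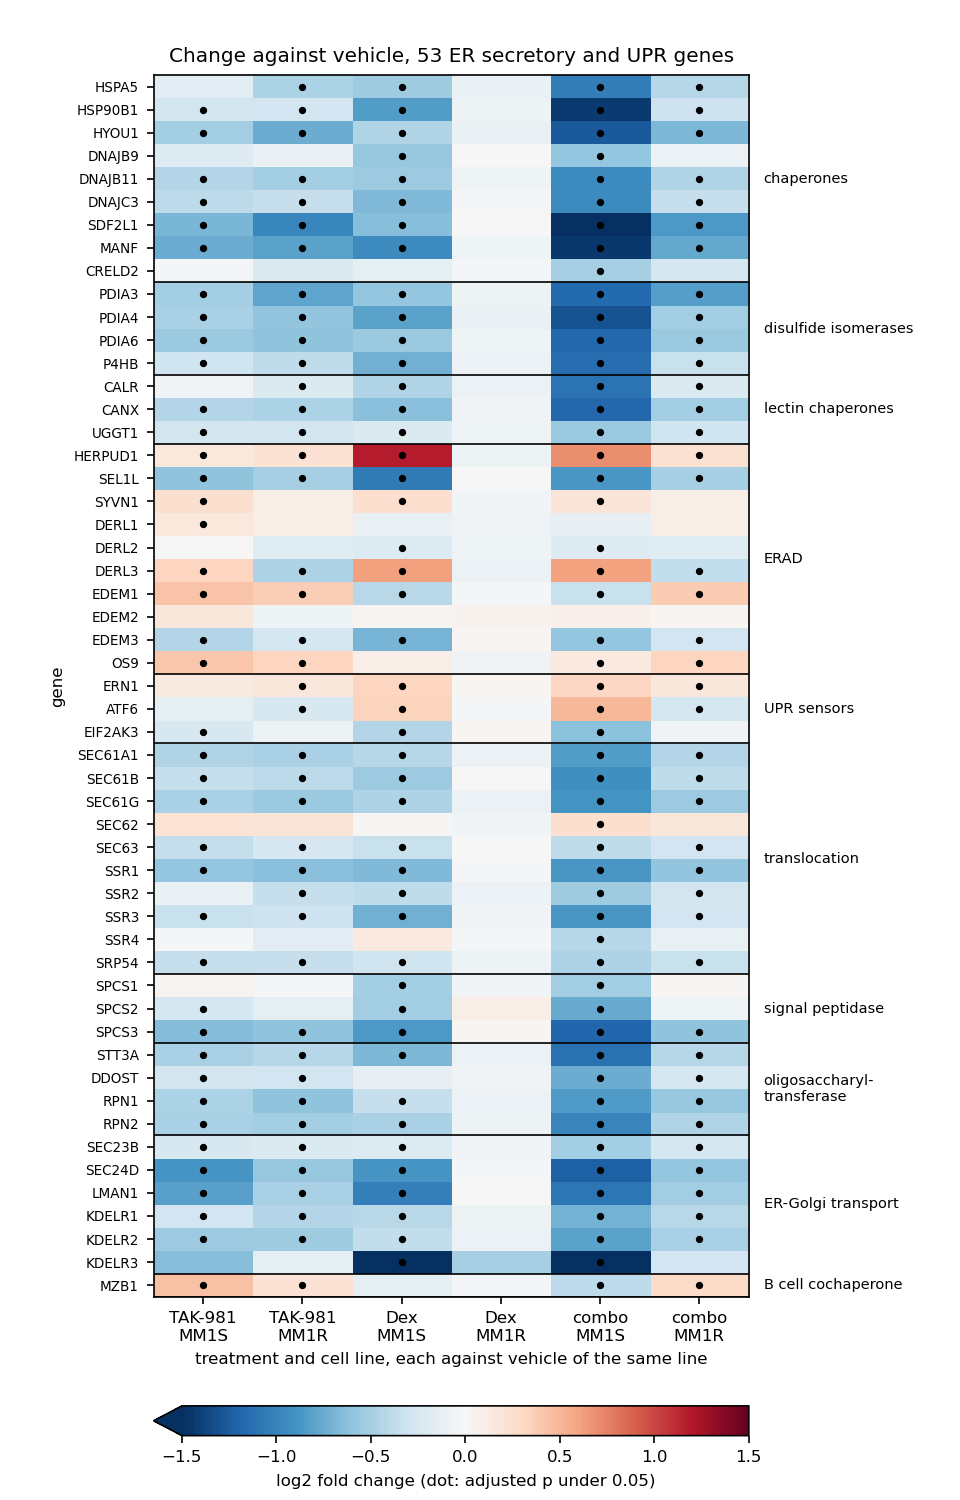
Log2 fold change against vehicle of the same line for the 53 genes (vertical axis, grouped by role) after TAK-981, Dex or combo in MM1S and MM1R (horizontal axis), with a dot at an edgeR adjusted p under 0.05 and colours clipped at 1.5 in size. Blue fills most cells of 5 columns and is darkest for combo in MM1S, with a median of -0.80, while the Dex column of MM1R is pale and has no dot.

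Among chaperones and cofactors 6 of 9 fell in MM1S and 7 of 9 in MM1R after TAK-981, and 0 rose. HSP90B1 was at 1669 and 1591 CPM in vehicle and 1332 and 1371 CPM in TAK-981-treated MM1S, and at 2081 and 2146 CPM in vehicle and 1731 and 1719.7 CPM in treated MM1R. Its log2 fold change (log2FC) was -0.27 (SE 0.05, adjusted p = 0.00032) in MM1S and -0.29 (SE 0.05, adjusted p = 0.000136) in MM1R, and the treated libraries lay below the vehicle libraries in each line. SDF2L1 went from 15.98 and 16.3 CPM to 7.78 and 12.2 CPM in MM1S and from 21.8 and 25.5 CPM to 12.03 and 11.9 CPM in MM1R. These changes of log2FC -0.69 (SE 0.17, adjusted p = 0.00326) and -0.98 (SE 0.16, adjusted p = 7.33e-05) were the largest fall of the 53 genes in MM1R and among the 4 largest in MM1S. MANF (an ER-resident factor that binds BiP) was at 71.8 and 69.6 CPM in vehicle and 39.5 and 45.3 CPM in treated MM1S, log2FC -0.74 (SE 0.07, adjusted p = 7.99e-08), and at 94.5 and 91.2 CPM in vehicle and 54.3 and 52.6 CPM in treated MM1R, -0.80 (SE 0.07, adjusted p = 2.35e-08). HYOU1 (the exchange factor of BiP) went from 534 and 546 to 349 and 411 CPM in MM1S, log2FC -0.51 (SE 0.07, adjusted p = 1.35e-05), and from 654 and 666 to 394 and 398 CPM in MM1R, -0.74 (SE 0.07, adjusted p = 1.42e-07). For MANF and HYOU1 the treated and vehicle libraries did not overlap in either line.

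HSPA5 itself was at 405 and 501 CPM in the TAK-981-treated MM1S libraries, which lay apart from each other and below the vehicle libraries, with a log2 value of -0.17 (SE 0.09, adjusted p = 0.127) that was not called. In MM1R it fell to 493 and 482 CPM, log2FC -0.47 (SE 0.09, adjusted p = 0.000236). The log2 difference between the lines was -0.30 (SE 0.12, adjusted p = 0.171), not past the threshold. The MM1S value depended on the TAK-981 libraries, with an adjusted p of 0.844 without replicate 1 and 0.00214 without replicate 2. DNAJB9 (ERdj4, a BiP cochaperone) gave a log2FC of -0.20 (adjusted p = 0.079) in MM1S and -0.10 (adjusted p = 0.361) in the MM1R line, from 121 and 126 CPM to 118 and 97.9 CPM in MM1S and from 98.8 and 100.1 to 96.95 and 88.5 CPM in MM1R.

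Disulfide isomerases, which form and rearrange disulfide bonds, fell in 4 of 4 cases in both lines after TAK-981. PDIA4 went to 293 and 316 CPM in MM1S, log2FC -0.49 (SE 0.07, adjusted p = 1.25e-05), and to 446 and 456 CPM in MM1R, -0.59 (SE 0.07, adjusted p = 1.41e-06). PDIA3 (the partner of calnexin and calreticulin) went from 205 and 199.8 to 137 and 147 CPM in MM1S, log2FC -0.51 (SE 0.07, adjusted p = 4.32e-06), and from 142 and 145 to 84.7 and 82.02 CPM in MM1R, -0.79 (SE 0.07, adjusted p = 2.81e-08). For both genes every treated library lay below every vehicle library of its line. Of the lectin chaperone genes CANX and UGGT1 fell in both lines. CALR was at 869 and 1009 CPM in treated MM1S, on either side of the vehicle libraries, log2FC -0.05 (SE 0.08, adjusted p = 0.615), and at 1229 and 1255 CPM in treated MM1R, -0.22 (SE 0.08, adjusted p = 0.0221). That MM1R call was lost in 4 of 4 fits without 1 library, with an adjusted p of up to 0.114, and the difference between lines missed the threshold (log2 difference -0.17, SE 0.11, adjusted p = 0.38).

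ERAD genes did not move as a block after TAK-981. In MM1S 6 of 10 were higher and 2 lower, where 25.2% of all genes rose and 23.7% fell. In MM1R 3 were higher and 3 lower, near the shares of all genes (25.8% and 27.6%). The MM1R counts are therefore not read as a trait of ERAD. The call of DERL1, 1 of the 6, was lost without MM1S TAK-981 replicate 1 or vehicle replicate 1 or 2. It was also lost with RLE scaling (adjusted p = 0.0727), library size only (0.179), no filter (0.0888) and DESeq2 (0.0815). In a fit restricted to these groups DERL1 (adjusted p = 0.318) and SYVN1 (adjusted p = 0.08), another of the 6, lost their calls. EDEM1 (which trims mannose from failed glycoproteins) rose from 787 and 808 CPM to 1053 and 1101 CPM in MM1S, log2FC 0.43 (SE 0.05, adjusted p = 9.56e-07), and from 992 and 1024 to 1316 and 1298 CPM in MM1R, 0.37 (SE 0.05, adjusted p = 5.45e-06). OS9 (a lectin that recognises them) rose from 289 and 298 to 368 and 415 CPM in MM1S, log2FC 0.42 (SE 0.06, adjusted p = 2.42e-05), and from 267 and 267 to 329.8 and 335 CPM in MM1R, 0.32 (SE 0.06, adjusted p = 0.000367). Treated and vehicle libraries did not overlap for either gene. HERPUD1 (which binds the ligase complex at the ER membrane) rose from 660.0 and 688 to 758 and 749 CPM in MM1S, log2FC 0.16 (SE 0.05, adjusted p = 0.0127), and from 873 and 859 to 1007 and 1007 CPM in MM1R, 0.22 (SE 0.05, adjusted p = 0.00124). Its MM1S call was lost with library size only (adjusted p = 0.0765), in a fit restricted to these groups (adjusted p = 0.24) and without MM1S vehicle replicate 1 (adjusted p = 0.114). SEL1L, in contrast, fell to 614 and 563 CPM in MM1S, log2FC -0.60 (SE 0.06, adjusted p = 2.64e-07), and to 439 and 414 CPM in MM1R, -0.50 (SE 0.06, adjusted p = 2.68e-06).

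Of the 3 sensors 1 was called in MM1S and 2 in MM1R after TAK-981. ERN1 was at 218 and 242 CPM in vehicle and 241 and 263 CPM in treated MM1S, log2FC 0.13 (SE 0.06, adjusted p = 0.0896), and at 271 and 273 CPM in vehicle and 298 and 315 CPM in treated MM1R, 0.17 (SE 0.06, adjusted p = 0.025). ATF6 was at 271 and 257 CPM in vehicle and 259 and 219 CPM in treated MM1S, where the libraries overlapped, log2FC -0.14 (SE 0.07, adjusted p = 0.119), and at 337 and 343 CPM in vehicle and 291 and 285 CPM in treated MM1R, -0.24 (SE 0.07, adjusted p = 0.0108). The MM1R call of ERN1 was lost without MM1R vehicle replicate 1 or 2 or TAK-981 replicate 2 (adjusted p up to 0.183), and that of ATF6 without vehicle replicate 2 or TAK-981 replicate 2 (adjusted p up to 0.0703). EIF2AK3 fell in MM1S, from 217 and 221 to 186 and 185 CPM, log2FC -0.24 (SE 0.05, adjusted p = 0.000992), and gave -0.08 (SE 0.05, adjusted p = 0.236) in MM1R, from 173 and 167 to 163 and 159 CPM. The log2 difference between the lines was 0.16 (SE 0.07, adjusted p = 0.217).

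In the entry machinery 7 of 10 translocation genes were lower in MM1S and 8 of 10 in MM1R after TAK-981, 4 of 4 oligosaccharyltransferase subunits were lower in both, and 2 of 3 signal peptidase subunits were lower in MM1S and 1 of 3 in MM1R. SEC61A1, the pore of the channel, went from 655 and 630.0 CPM to 472 and 467 CPM in MM1S, log2FC -0.45 (SE 0.05, adjusted p = 1.22e-06), and from 745 and 740.3 to 523 and 538 CPM in MM1R, -0.48 (SE 0.05, adjusted p = 5.25e-07). RPN1 (an oligosaccharyltransferase subunit) gave a log2FC of -0.47 (adjusted p = 1.37e-06) and -0.60 (adjusted p = 7.09e-08). In ER to Golgi transport 5 of 6 fell in each line. SEC24D (a cargo adaptor of COPII vesicles) had the largest fall of the 53 genes in MM1S, from 132 and 126 to 75.7 and 64.03 CPM, log2FC -0.89 (SE 0.07, adjusted p = 1.42e-08), and fell from 145 and 144 to 98.99 and 95.3 CPM in MM1R, -0.57 (SE 0.07, adjusted p = 3.11e-06). LMAN1 (the cargo receptor ERGIC-53) came next, from 385 and 346 to 225 and 189 CPM in MM1S, log2FC -0.82 (SE 0.08, adjusted p = 1.56e-07), and from 396 and 390.1 to 292 and 271 CPM in MM1R, -0.48 (SE 0.08, adjusted p = 7.62e-05). For SEC61A1, SEC24D and LMAN1 no treated library reached the vehicle libraries of its line. MZB1 rose from 386 and 416 to 505 and 581 CPM in MM1S, log2FC 0.44 (SE 0.07, adjusted p = 6.92e-05), and from 476 and 488 to 549.7 and 569.9 CPM in MM1R, 0.22 (SE 0.07, adjusted p = 0.0183), although the MM1R call was lost without vehicle replicate 1 or 2 or TAK-981 replicate 2 (adjusted p up to 0.113).

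The TAK-981 response differed between the lines for 1 of the 53 genes. Over all genes 3.19% had a higher and 0.978% a lower change in MM1R than in MM1S, and of the 53 genes 0 were higher and 1 lower by edgeR, with 9 at an unadjusted p under 0.05. The gene is DERL3, which rose in MM1S from 107 and 114 to 129.5 and 145 CPM, log2FC 0.32 (SE 0.07, adjusted p = 0.000544), and fell in MM1R from 198 and 199 to 141 and 146 CPM, -0.47 (SE 0.06, adjusted p = 8.32e-06). The groups did not overlap in either line, and the log2 difference in change was -0.78 (SE 0.09, adjusted p = 9.35e-05). DERL3 overlaps SMARCB1 on the opposite strand, and use of strand in the counting is not given in the sources used here. SMARCB1, with 47.4% of the DERL3 counts on average, gave a log2FC of 0.06 in MM1S (adjusted p = 0.435) and of -0.19 in the MM1R line (adjusted p = 0.0131), with a difference of -0.25 (adjusted p = 0.105). Over the 53 genes the median 95% interval of the difference between lines reached 0.2 to either side. Without MM1S TAK-981 replicate 1, 2 genes were higher and 7 lower.

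**Figure D3:**
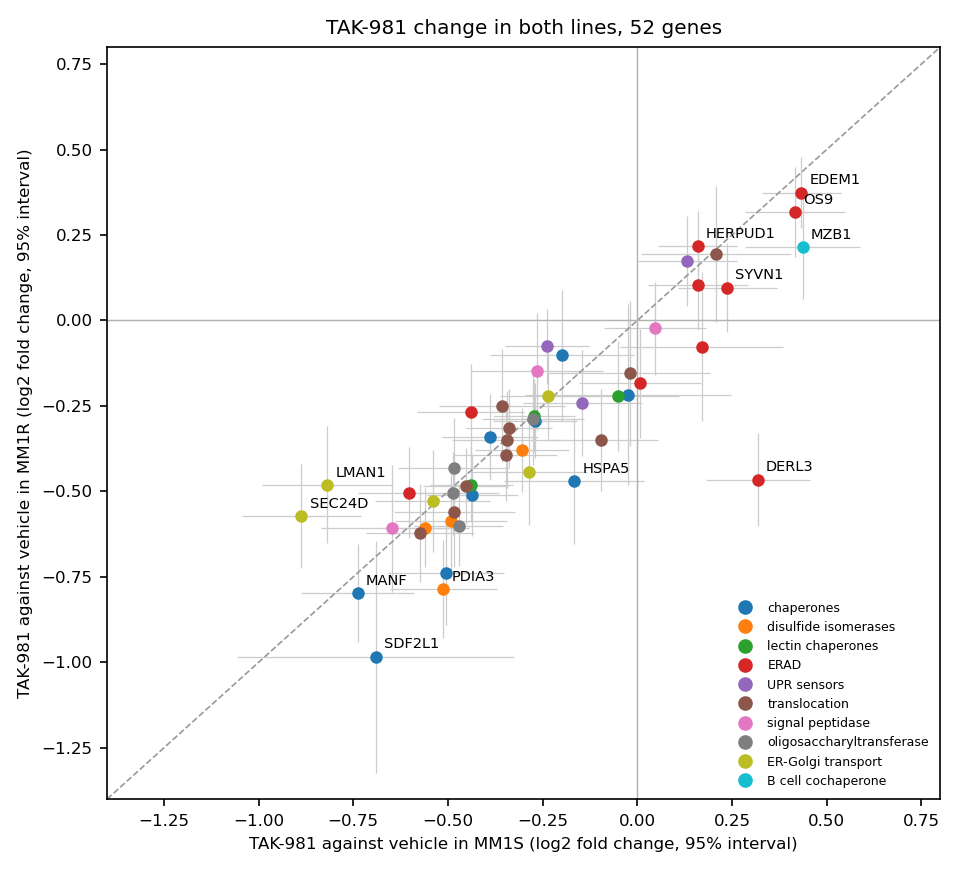
TAK-981 log2 fold change against vehicle in MM1S (horizontal axis) and MM1R (vertical axis) for 52 genes, KDELR3 being left out for its few counts, with 95% intervals as grey bars, colours for role and a dashed line of equal change. Most genes lie near the line at the lower left, and DERL3 stands apart at 0.32 in MM1S and -0.47 in MM1R.

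Dex alone lowered most of the set in MM1S and gave no call in MM1R. In MM1S 40 of the 53 genes fell and 5 rose, where 21.5% of all genes fell and 20.8% rose, and the median log2 fold change was -0.45, against 0.01 for all genes. In MM1R 0 of the 53 genes were called, as were 0 of all genes (a share of 0%), by edgeR and by DESeq2. At an unadjusted p under 0.05 edgeR had 0 of the 53 and 395 of all genes. The median log2 value of the 53 in MM1R was -0.05, and the median 95% interval reached 0.14 to either side. The plasma cell markers, MZB1 among them, summed to 8805 and 8839 CPM in MM1S vehicle and to 5853 and 5987 CPM after Dex. In MM1R they summed to 11294 and 11359 CPM in vehicle and to 10722 and 11112 CPM after Dex. Their part in the result was not tested.

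HERPUD1 and DERL3 of ERAD rose most after Dex in MM1S. HERPUD1 went from 660.0 and 688 CPM in vehicle to 1562 and 1498 CPM after Dex, log2FC 1.18 (SE 0.05, adjusted p = 2.15e-12), and was at 824 and 821 CPM in Dex-treated MM1R, -0.07 (SE 0.05, adjusted p = 1). DERL3 went to 161 and 175 CPM in MM1S, log2FC 0.61 (SE 0.07, adjusted p = 4.69e-07), and was at 182 and 192 CPM in MM1R, -0.08 (SE 0.06, adjusted p = 1). No Dex library of MM1S reached down to a vehicle library for either gene. SMARCB1, which overlaps DERL3, gave a log2FC of 0.19 after Dex in MM1S (adjusted p = 0.0183). SYVN1 (the ERAD ubiquitin ligase HRD1) also rose, log2FC 0.26 (SE 0.06, adjusted p = 0.00272), while its scaffold SEL1L had the largest fall of the set beside KDELR3, to 445 and 413 CPM, -1.06 (SE 0.06, adjusted p = 2.48e-10). In MM1R SEL1L was at 622 and 585 CPM after Dex, on either side of its vehicle libraries. Of the ERAD genes 3 rose, 4 fell and 3 were not called, where 20.8% of all genes rose and 21.5% fell. The call of DERL2, 1 of the 4, was lost without MM1S Dex replicate 1 or vehicle replicate 1 or 2. It was also lost with DESeq2 (adjusted p = 0.0603), no filter (0.0626) and a fit restricted to these groups (0.0756).

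Of the sensors, the genes of IRE1 and ATF6 rose and that of PERK fell after Dex in MM1S. ERN1 was at 292 and 281 CPM, log2FC 0.32 (SE 0.06, adjusted p = 0.00046), ATF6 at 351 and 313 CPM, 0.33 (SE 0.07, adjusted p = 0.0015), and EIF2AK3 at 163 and 159.9 CPM, -0.44 (SE 0.05, adjusted p = 2e-06). In Dex-treated MM1R the values were 281 and 275 CPM for ERN1, 341 and 328 CPM for ATF6 and 173 and 173 CPM for EIF2AK3. In MM1S the Dex libraries lay outside the vehicle range for each of the 3 genes, and in MM1R the log2 values were between -0.02 and 0.03.

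Chaperones fell in 8 of 9 cases, disulfide isomerases in 4 of 4 and lectin chaperone genes in 3 of 3 after Dex in MM1S. HSPA5 fell to 320.4 and 382 CPM, log2FC -0.53 (SE 0.09, adjusted p = 9.87e-05), and was at 607 and 657 CPM in MM1R. HSP90B1 fell to 895 and 933 CPM, log2FC -0.83 (SE 0.05, adjusted p = 4.73e-10), and was at 1924 and 2084 CPM in MM1R. MANF went to 35.9 and 36.9 CPM in MM1S, log2FC -0.96 (SE 0.07, adjusted p = 3.97e-09), and to 87.5 and 90.2 CPM in MM1R. For these 3 genes both MM1S Dex libraries lay below both vehicle libraries. HYOU1 gave a log2FC of -0.45 (SE 0.07, adjusted p = 5.91e-05) in MM1S, at 369 and 419 CPM, and was at 591 and 641 CPM in MM1R. SDF2L1 gave a log2FC of -0.64 (SE 0.17, adjusted p = 0.00631), at 9.02 and 11.6 CPM, a call lost without MM1S Dex replicate 1 (adjusted p = 0.0665), and was at 20.8 and 26.9 CPM in MM1R. DNAJB9 fell to 85.2 and 81.5 CPM, log2FC -0.57 (SE 0.09, adjusted p = 6.64e-05), and was at 108 and 90.8 CPM in MM1R, where the libraries spanned those of vehicle. CRELD2 was the chaperone not called in MM1S, at a log2FC of -0.14 (adjusted p = 0.43).

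PDIA4 fell to 238 and 254 CPM after Dex in MM1S, log2FC -0.80 (SE 0.07, adjusted p = 3.89e-08), and was at 585 and 683 CPM in MM1R. CALR fell to 654 and 768 CPM, log2FC -0.45 (SE 0.08, adjusted p = 0.000121), and was at 1287 and 1437 CPM in MM1R. Translocation genes fell in 8 of 10 cases, signal peptidase subunits in 3 of 3, oligosaccharyltransferase subunits in 3 of 4 and transport genes in 6 of 6. SEC61A1 was at 478 and 476 CPM in Dex-treated MM1S, log2FC -0.43 (SE 0.05, adjusted p = 3.03e-06), and 679 and 713 CPM in MM1R. SPCS3, a signal peptidase subunit, went from 383 and 376 CPM to 217 and 201 CPM in MM1S, log2FC -0.86 (SE 0.09, adjusted p = 4.14e-07), and was at 329 and 331 CPM in vehicle and 356 and 318 CPM after Dex in MM1R. The MM1S Dex libraries of both genes lay below those of vehicle. LMAN1 fell to 190.1 and 168 CPM, log2FC -1.03 (SE 0.08, adjusted p = 1.14e-08), and was at 404 and 380.0 CPM in MM1R. MZB1 was at 342 and 391 CPM in MM1S, log2FC -0.13 (SE 0.07, adjusted p = 0.166), and at 448 and 494 CPM in MM1R, and was called in neither line.

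KDELR3 had the lowest fitted value after Dex in MM1S, log2FC -2.68 (SE 0.70, adjusted p = 0.00473), but rests on few reads, 11 and 17 in vehicle, 9 and 8 after TAK-981, 4 and 0 after Dex and 1 and 1 in combo. The ratio of Dex to vehicle from summed counts was 0.149 (95% interval 0.038 to 0.426) and that of combo to vehicle 0.0848 (0.00979 to 0.336), intervals that cover counting error only. The edgeR call after Dex was lost without MM1S vehicle replicate 2 or Dex replicate 2 (adjusted p up to 0.0613). KDELR3 overlaps DDX17 on the opposite strand, which has far more counts. In all 26 of the 53 genes overlap another gene of the table, 17 of them on the opposite strand and 9 with a gene that has over 10% of their counts.

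The difference between the lines in the Dex response was called for 40 of the 53 genes. The change was higher (less of a fall) in MM1R for 35 and lower for 5, where 15% of all genes were higher and 13.1% lower, and the median difference was 0.40 against -0.01. SEL1L (log2 difference 1.06, SE 0.09, adjusted p = 6.65e-08), LMAN1 (1.02, SE 0.12, adjusted p = 2.13e-06), SPCS3 (0.89, SE 0.12, adjusted p = 3.17e-05) and MANF (0.89, SE 0.10, adjusted p = 1.4e-06) had the largest positive differences among the genes called. The 5 negative ones were HERPUD1 (log2 difference -1.26, SE 0.07, adjusted p = 3.27e-10), DERL3 (-0.69, SE 0.09, adjusted p = 1.26e-05), ATF6 (-0.35, adjusted p = 0.0167), SYVN1 (-0.30, adjusted p = 0.016) and ERN1 (-0.29, adjusted p = 0.021). SMARCB1, which overlaps DERL3, gave -0.25 on the log2 scale (adjusted p = 0.04). The calls of ATF6, SYVN1 and ERN1 were lost in 4, 4 and 5 of 8 fits that left out 1 library, at an adjusted p of up to 0.0742, 0.0792 and 0.13. MM1R vehicle replicate 2 was among the libraries left out each time. Of the other named genes, HSP90B1 gave a log2 difference of 0.76 (adjusted p = 3.91e-07), PDIA4 0.70 (adjusted p = 2.71e-05), DNAJB9 0.57 (adjusted p = 0.00279), EIF2AK3 0.46 (adjusted p = 0.000112) and SEC61A1 0.34 (adjusted p = 0.00238). HSPA5 at a log2 difference of 0.44 (adjusted p = 0.0132), CALR at 0.36 (adjusted p = 0.0179), HYOU1 at 0.35 (adjusted p = 0.0145) and SDF2L1 at 0.65 (adjusted p = 0.0399) lost the call in 2, 4, 4 and 5 of 8 such fits, at an adjusted p of up to 0.0543, 0.0908, 0.0665 and 0.162. MM1R vehicle replicate 1 and MM1R Dex replicate 2 were among the libraries left out each time.

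**Figure D4:**
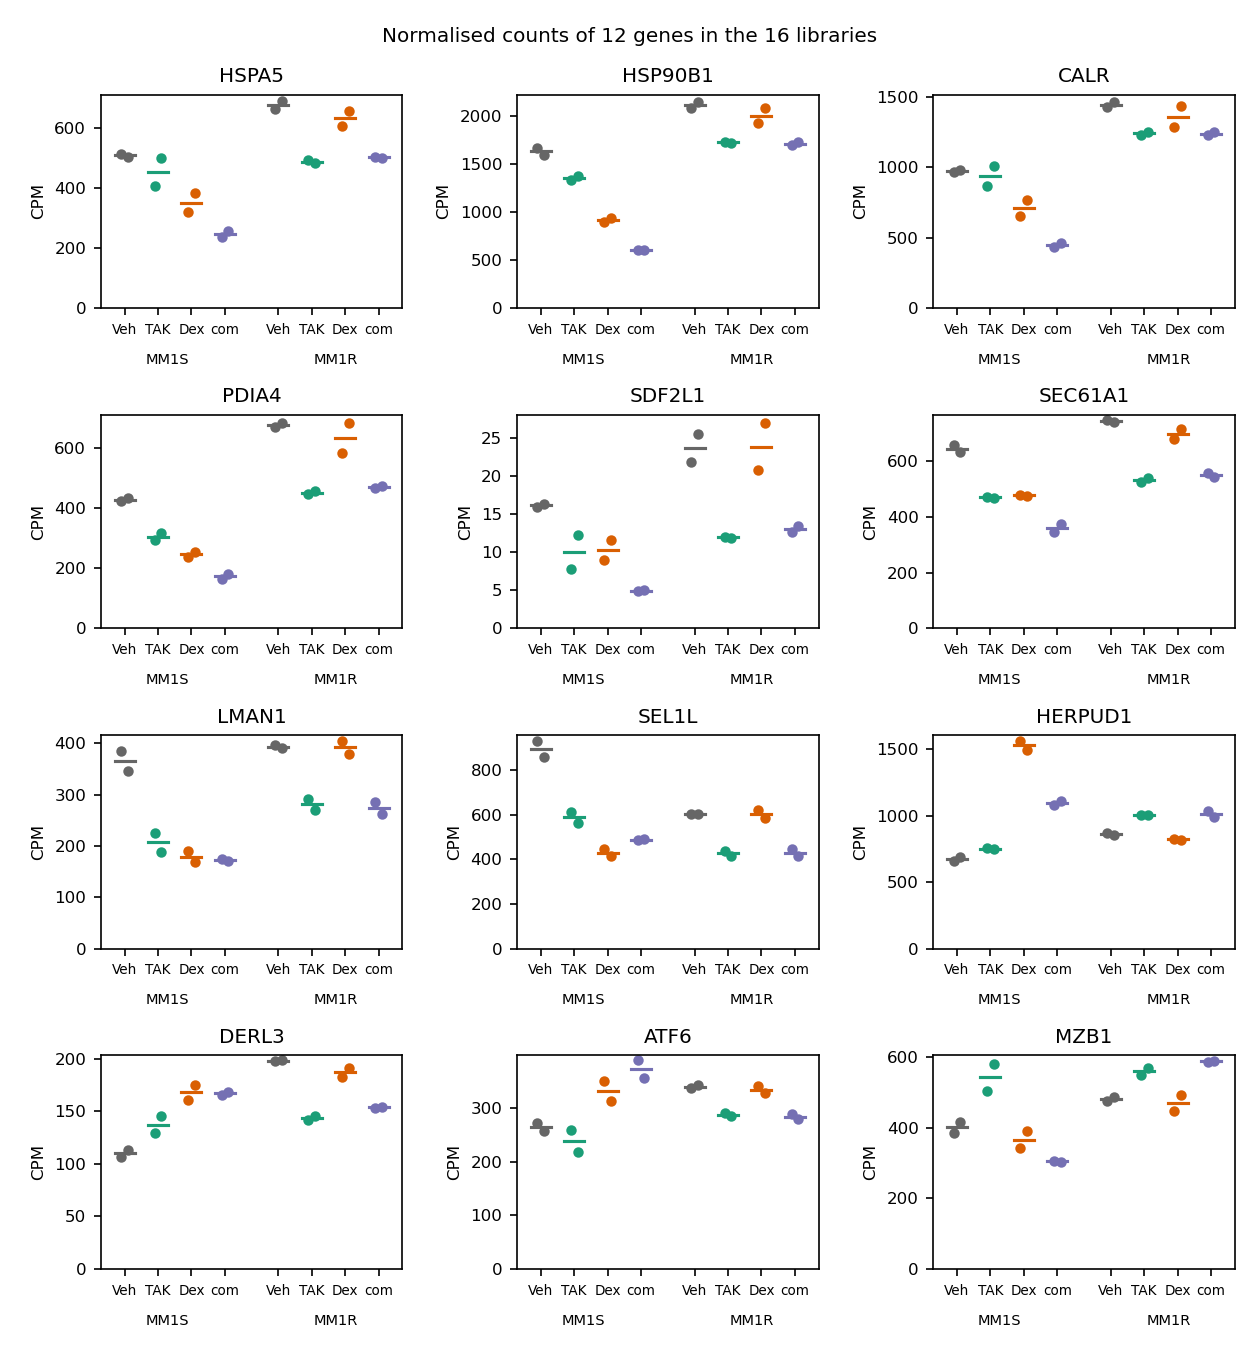
CPM of 12 genes in the 16 libraries, with 1 point per library, a bar at the mean of 2, and groups Veh, TAK-981 (TAK), Dex and combo (com) of MM1S on the left and MM1R on the right of each panel. HSP90B1 steps down over the MM1S groups from 1669 and 1591 to 605 and 601 CPM, HERPUD1 peaks at 1562 and 1498 CPM in Dex-treated MM1S, and the Dex points of MM1R sit close to those of its vehicle.

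Combo lowered nearly every group of the set in MM1S, ERAD and the sensors apart. Against vehicle 44 of the 53 genes fell and 7 rose in MM1S, where 29.5% of all genes fell and 30.8% rose, and the median log2 fold change was -0.80, against 0.04 for all genes. Counting only calls of 1 or more in size on the log2 scale, 16 fell and 0 rose. The share of all genes at this limit was not computed. For 35 of the 53 genes both combo libraries lay below all 6 other MM1S libraries, against 17.5% of all genes, and for 1, ATF6, both lay above them, against 15.2%. The 53 genes took 1.99% ± 0.031 of all counts in vehicle, 1.63% ± 0.0061 after TAK-981, 1.49% ± 0.00066 after Dex and 1.23% ± 0.0117 in combo (SD, n = 2 each). In MM1R the shares in the same order were 2.15% ± 0.001, 1.77% ± 0.0108, 2.09% ± 0.0256 and 1.79% ± 0.00784 (SD, n = 2 each). The share of MALAT1, a nuclear RNA, was 2.93%, 5.26%, 3.36% and 6.07% on average in the same MM1S groups and 2.95%, 6.03%, 3.1% and 5.72% in MM1R, and GAPDH was at 1664 ± 67.5 CPM in MM1S vehicle and 649 ± 31.4 CPM in MM1S combo (SD, n = 2 each). The plasma cell markers summed to between 5037 and 5056 CPM in MM1S combo. Their part in the result was not tested.

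All 9 chaperones, 4 disulfide isomerases and 3 lectin chaperone genes fell in MM1S combo. HSP90B1 reached 605 and 601 CPM, log2FC -1.43 (SE 0.05, adjusted p = 5.42e-14), HSPA5 238 and 257 CPM, -1.04 (SE 0.09, adjusted p = 1.85e-08), and HYOU1 219 and 232 CPM, -1.26 (SE 0.07, adjusted p = 3.96e-11). For these 3 genes the combo libraries lay below those of every other MM1S group. SDF2L1 was at 4.89 and 5.00 CPM, log2FC -1.70 (SE 0.20, adjusted p = 1.15e-06), and MANF at 25.1 and 26.8 CPM, -1.44 (SE 0.07, adjusted p = 5.95e-12). PDIA4 was at 164 and 182 CPM, log2FC -1.31 (SE 0.07, adjusted p = 1.47e-11), and CALR at 433 and 466 CPM, -1.11 (SE 0.08, adjusted p = 6.1e-10). DNAJB9, in contrast, was at 88.01 and 77.4 CPM, log2FC -0.58 (SE 0.09, adjusted p = 2.73e-05), a level that overlapped that of Dex alone.

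Translocation fell in 9 of 10 cases in MM1S combo with SEC62 higher (log2FC 0.24, adjusted p = 0.0382), and signal peptidase, oligosaccharyltransferase and transport genes fell in 3 of 3, 4 of 4 and 6 of 6. The SEC62 call was lost without MM1S combo replicate 1 or vehicle replicate 1 or 2. It was also lost with RLE scaling (adjusted p = 0.0512) and library size only (adjusted p = 0.0634). SEC61A1 was at 346 and 374 CPM, log2FC -0.84 (SE 0.05, adjusted p = 1.41e-10), LMAN1 at 176 and 170.3 CPM, -1.08 (SE 0.08, adjusted p = 2.07e-09), and SEC24D at 54.9 and 55.5 CPM, -1.23 (SE 0.08, adjusted p = 8.88e-11). ERAD and the sensors stayed divided, with 4 of 10 ERAD genes higher and 4 lower. Of all genes 30.8% rose and 29.5% fell, so the ERAD counts are not read as a trait of that group. Of the 4 higher, OS9 (log2FC 0.15, adjusted p = 0.0464) lost its call in 4 of 4 fits without 1 library. It also lost it with DESeq2 (adjusted p = 0.0749), RLE (0.0674), no filter (0.0805) and a fit restricted to these groups (0.0783). SYVN1 (log2FC 0.19, adjusted p = 0.0117) lost its call without MM1S combo replicate 2 or vehicle replicate 1. Of the 4 lower, DERL2 lost its call in 4 of 4 fits without 1 library, with DESeq2 (adjusted p = 0.0546) and with no filter (0.0617). HERPUD1 was at 1079.6 and 1113 CPM, log2FC 0.70 (SE 0.05, adjusted p = 6.49e-10), between the Dex and the TAK-981 libraries, and DERL3 at 166 and 169 CPM, 0.60 (SE 0.07, adjusted p = 2.32e-07). ATF6 was at 389.5 and 357 CPM, log2FC 0.50 (SE 0.07, adjusted p = 1.31e-05), ERN1 at 279 and 294 CPM, 0.32 (SE 0.06, adjusted p = 0.000265), and EIF2AK3 at 141 and 145 CPM, -0.61 (SE 0.05, adjusted p = 1.12e-08). MZB1, higher after TAK-981, was lower in combo, at 307 and 304 CPM, log2FC -0.39 (SE 0.07, adjusted p = 0.000143), below all 6 other MM1S libraries.

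Against each single drug in MM1S, combo again lowered most of the set. Against TAK-981 42 of the 53 genes were lower and 4 higher, where 20.6% of all genes were lower and 14.5% higher, with a median of -0.42 against -0.02. HSP90B1 (log2FC -1.16, SE 0.05, adjusted p = 6.32e-12), CALR (-1.06, SE 0.08, adjusted p = 4.5e-09) and SDF2L1 (-1.01, SE 0.21, adjusted p = 0.0013) fell most among genes with more than a few counts, and the 4 higher were ATF6 (0.64, adjusted p = 1.76e-06), HERPUD1 (0.54, adjusted p = 8.23e-08), DERL3 (0.29, adjusted p = 0.0021) and ERN1 (0.18, adjusted p = 0.0286). The ERN1 call was lost without MM1S TAK-981 replicate 1 or combo replicate 2, and in a fit restricted to these groups (adjusted p = 0.156). DNAJB9 (log2FC -0.38, adjusted p = 0.0033) lost its call without combo replicate 2 (adjusted p = 0.0651). Against Dex 34 were lower and 1 higher, where 25.4% of all genes were lower and 22.2% higher, with a median of -0.33 against 0.01. SDF2L1 (log2FC -1.06, SE 0.21, adjusted p = 0.000576), HYOU1 (-0.81, SE 0.07, adjusted p = 5.71e-08), CALR (-0.66, SE 0.08, adjusted p = 1.57e-06) and DDOST (-0.62, SE 0.06, adjusted p = 2.9e-07), an oligosaccharyltransferase subunit, fell most. DDOST was at 274 and 277 CPM in vehicle, 223 and 232 CPM after TAK-981, 243 and 263 CPM after Dex and 154 and 174 CPM in combo, with the combo libraries the lowest. SEL1L was the 1 gene higher, log2FC 0.19 (SE 0.06, adjusted p = 0.0219), at 486 and 489.7 CPM in combo. Its call was lost without Dex replicate 2 or combo replicate 1 or 2, and in a fit restricted to these groups (adjusted p = 0.101). Of the ERAD genes 8 of 10 did not differ from Dex past the threshold, and HERPUD1 was lower, log2FC -0.48 (SE 0.05, adjusted p = 2.78e-07).

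**Figure D5:**
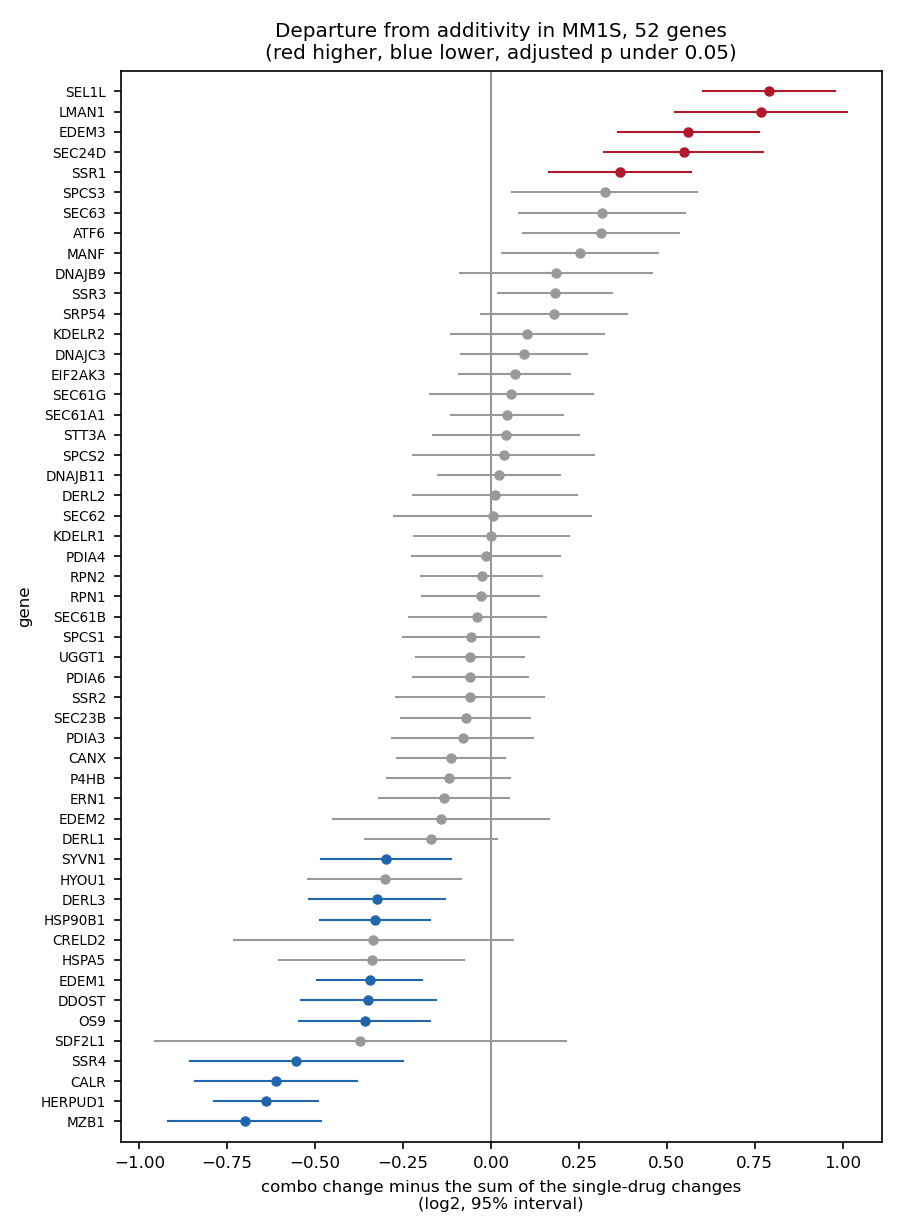
Combo change minus the sum of the TAK-981 and Dex changes in MM1S for 52 genes (KDELR3 left out for its few counts), as log2 values with 95% intervals, red and blue where the edgeR adjusted p was under 0.05. The genes run from SEL1L at 0.79 to MZB1 at -0.70, and 37 of the 52 are grey.

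The combo change departed from what adding both single-drug changes gives in 15 of the 53 genes, in both directions. In MM1S 5 were higher and 10 lower than the sum, where 5.47% of all genes were higher and 9.48% lower, and the median departure was -0.04 against -0.03. On the higher side, where the combo fall was less than the sum, stood SEL1L (log2 difference 0.79, SE 0.09, adjusted p = 1.17e-05), LMAN1 (0.77, SE 0.12, adjusted p = 0.000255), EDEM3 (0.56, SE 0.10, adjusted p = 0.000732), a paralog of EDEM1, SEC24D (0.55, SE 0.11, adjusted p = 0.00226) and SSR1 (0.37, adjusted p = 0.0159), a subunit of the complex at the SEC61 channel. EDEM3 was at 436 and 430.5 CPM in vehicle, 338 and 301 CPM after TAK-981, 279 and 254 CPM after Dex and 299 and 281 CPM in combo. SEL1L and LMAN1 had already fallen after either drug, and their combo libraries lay near the Dex libraries. On the lower side MZB1 (log2 difference -0.70, SE 0.10, adjusted p = 0.000185) and EDEM1 (-0.35, adjusted p = 0.0031) rose after TAK-981 alone and fell in combo. HERPUD1 (log2 difference -0.64, SE 0.07, adjusted p = 8.3e-06) rose less than the sum. CALR (log2 difference -0.61, SE 0.11, adjusted p = 0.0011), HSP90B1 (-0.33, adjusted p = 0.00624) and DDOST (-0.35, adjusted p = 0.0152) fell more than the sum. SSR4 (log2 difference -0.55, SE 0.14, adjusted p = 0.0161), OS9, SYVN1 and DERL3 complete the 10. SMARCB1, which overlaps DERL3, gave -0.29 on the log2 scale (adjusted p = 0.0364). SSR4, also of the complex at the channel, was at 115 and 114 CPM in vehicle, 102 and 124 CPM after TAK-981, 110.3 and 144 CPM after Dex and 85.2 and 85.7 CPM in combo. Leaving out 1 library took away the calls of SSR4, SYVN1, DERL3, SSR1, DDOST and OS9, each of them without MM1S vehicle replicate 1, Dex replicate 2 or combo replicate 1. The highest adjusted p was 0.0783 for SSR4, 0.136 for SYVN1, 0.115 for DERL3, 0.101 for SSR1, 0.0886 for DDOST and 0.0606 for OS9. Without TAK-981 replicate 2 the calls of SSR4, SYVN1, DERL3 and SSR1 were lost, and without vehicle replicate 2 those of SSR4 and SYVN1. With library size only the calls of SYVN1 (adjusted p = 0.0716) and DERL3 (adjusted p = 0.0555) were lost. In a fit restricted to the MM1S groups MZB1, HERPUD1 and CALR were lower past the threshold, while HSP90B1, EDEM1, DDOST, SSR4, OS9, SYVN1 and DERL3 were not (adjusted p from 0.0995 to 0.237), nor was SSR1 higher (adjusted p = 0.0703). Without MM1S TAK-981 replicate 1, 10 were higher and 14 lower.

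In MM1R combo lowered most of the set against vehicle and gave no call against TAK-981 alone. The plasma cell markers summed to between 9751 and 9992 CPM and GAPDH was at 1187 ± 1.89 CPM in MM1R combo (SD, n = 2), and their part in the result was not tested. Against vehicle 36 of the 53 genes fell and 5 rose, where 26.7% of all genes fell and 24.8% rose, with a median of -0.30 against 0.01. Against TAK-981 0 of the 53 and 0 of all genes (a share of 0%) were called by edgeR and by DESeq2. At an unadjusted p under 0.05 edgeR had 0 of the 53 and 214 of all genes. The median log2 value of the 53 was 0.01 and the median 95% interval reached 0.14 to either side. Against Dex 35 fell and 4 rose, where 25.3% of all genes fell and 23.1% rose, with a median of -0.26 against 0.00. EDEM1, OS9, MZB1 and HERPUD1 were the 4 that rose.

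HSP90B1 was at 1696 and 1725 CPM in MM1R combo, log2FC -0.30 (SE 0.05, adjusted p = 9.31e-05) against vehicle, HSPA5 at 503 and 502 CPM, -0.43 (SE 0.09, adjusted p = 0.000562), and HYOU1 at 414 and 413 CPM, -0.67 (SE 0.07, adjusted p = 4.57e-07). SDF2L1 had the largest fall, at 12.7 and 13.4 CPM, log2FC -0.86 (SE 0.16, adjusted p = 0.000218), followed by PDIA3 at 80.2 and 81.7 CPM, -0.83 (SE 0.07, adjusted p = 1.45e-08). MANF was at 53.3 and 56.01 CPM, log2FC -0.76 (SE 0.07, adjusted p = 3.9e-08). For these 6 genes the combo libraries lay below those of vehicle. PDIA4 was at 468 and 473 CPM, SEC61A1 at 557 and 542 CPM and LMAN1 at 285 and 262 CPM. Their log2 fold changes of -0.53 (adjusted p = 5.31e-06), -0.43 (adjusted p = 2.1e-06) and -0.52 (adjusted p = 3.3e-05) were falls. CALR at 1228 and 1253 CPM gave a log2FC of -0.22 (adjusted p = 0.022) and ERN1 at 302 and 309 CPM gave 0.17 (adjusted p = 0.0312), calls lost in 4 of 4 fits without 1 library for both. EDEM1 (log2FC 0.38, SE 0.05, adjusted p = 4.59e-06), OS9 (0.32, SE 0.06, adjusted p = 0.000316), MZB1 (0.29, SE 0.07, adjusted p = 0.0029) and HERPUD1 (0.23, SE 0.05, adjusted p = 0.000894) rose, with the combo libraries above those of vehicle and of Dex. EDEM1 was at 992 and 1008 CPM after Dex and 1322 and 1305 CPM in combo, and OS9 at 247 and 267 CPM after Dex and 336 and 332 CPM in combo. MZB1 was at 586 and 591 CPM and HERPUD1 at 1036 and 991 CPM in combo. DERL3 fell to 153 and 154 CPM, log2FC -0.37 (SE 0.06, adjusted p = 0.000112), and ATF6 to 289 and 279 CPM, -0.26 (adjusted p = 0.00685), the latter call lost without MM1R combo replicate 2 (adjusted p = 0.0595). DNAJB9 at 96.5 and 90.98 CPM and EIF2AK3 at 165 and 163 CPM were not called.

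Read against the promoter sequences shown above, the 9 genes with an ERSE or ERSE-II had a median log2 fold change of -1.18 in MM1S combo, with 8 lower and 1 higher, and the 37 with a window and neither motif -0.71, with 31 lower and 5 higher. For Dex in MM1S the medians were -0.53 and -0.44, for TAK-981 -0.27 and -0.30 in MM1S and -0.47 and -0.29 in MM1R, and between the untreated lines 0.36 and 0.11. For combo against Dex in MM1S they were -0.60 and -0.23, with 9 of 9 and 21 of 37 lower. The call of CRELD2, 1 of the 9, was lost without MM1S combo replicate 1 or 2 or Dex replicate 2 (log2FC -0.281, -0.445 and -0.236). SSR3, 1 of the 37, lost its call without the same libraries. Among all 53 genes, with a window or not, SPCS2, SSR1, EIF2AK3, KDELR1, MZB1 and SPCS3 also lost this call on leaving out 1 library. SPCS2 lost it with DESeq2 as well (adjusted p = 0.0757). HERPUD1 was the exception among the 9, higher in every MM1S treatment. SDF2L1 and HYOU1, which also carry ERSE-II, fell in these groups. These are descriptions of small groups, and no test was made.

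XBP1, ATF4 and DDIT3, the transcription factors of the UPR branches, are not among the 53 genes and were read beside them. XBP1 was at 865 and 832 CPM in vehicle, 901 and 973 CPM after TAK-981, 722 and 823 CPM after Dex and 673 and 683 CPM in combo in MM1S. In MM1R it was at 1258 and 1324 CPM in vehicle, 1288 and 1328 CPM after TAK-981, 1177 and 1319.5 CPM after Dex and 1356 and 1331 CPM in combo. It was higher in untreated MM1R (log2 difference 0.61, SE 0.07, adjusted p = 8.73e-07) and fell in MM1S combo (-0.32, SE 0.07, adjusted p = 0.000405), and its splicing cannot be read from counts per gene. DDIT3 (CHOP, a factor induced through PERK) was at 8.65 and 8.66 CPM in vehicle and 11.7 and 13.2 CPM after TAK-981 in MM1S, log2FC 0.52 (SE 0.11, adjusted p = 0.000738), and at 8.19 and 7.75 CPM in vehicle and 11.5 and 11.1 CPM in treated MM1R, 0.50 (SE 0.11, adjusted p = 0.000955). It rose in MM1S combo to 14.7 and 15.999 CPM, log2FC 0.83 (SE 0.11, adjusted p = 3.16e-06), and was at 9.28 and 8.37 CPM after Dex, 0.03 (adjusted p = 0.873). ATF4 went from 159 and 178 CPM to 112 and 126 CPM after Dex in MM1S, log2FC -0.50 (SE 0.09, adjusted p = 0.000118), and was at 131 and 136 CPM in combo. PPP1R15A, which returns translation to normal after PERK acts, rose after TAK-981, with a log2FC of 0.65 in MM1S (adjusted p = 1.07e-05) and one of 0.51 in the MM1R line (adjusted p = 0.000138). CREB3L2, an ER-bound factor related to ATF6, rose after Dex in MM1S (log2FC 1.24, SE 0.05, adjusted p = 2.15e-12). CHAC1, a target of ATF4, fell by 2.67 on the log2 scale there (SE 0.30, adjusted p = 1.36e-06). Of the 15 UPR factors and outputs listed 5 rose and 4 fell after TAK-981 in MM1S, 2 and 2 in MM1R, and 3 rose and 5 fell after Dex in MM1S. Of all genes 25.2% rose and 23.7% fell, 25.8% and 27.6%, and 20.8% and 21.5% in the same order. These counts are therefore not read as a trait of the list.

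Genes of the same pathways outside the 53 were counted from 4 further lists. Of 22 other genes of translocation, signal peptidase and glycosylation 16 fell and 1 rose after TAK-981 in each line, 12 fell and 1 rose after Dex in MM1S and 19 fell and 1 rose in MM1S combo. SEC11C, a catalytic signal peptidase subunit, gave a log2FC of -0.45 after TAK-981 (adjusted p = 2.98e-06), -1.06 after Dex (adjusted p = 7.4e-11) and -1.43 in combo (adjusted p = 2.27e-13) in MM1S. Of 21 other folding genes 12 fell and 4 rose after TAK-981 in MM1S, 9 fell and 2 rose in MM1R, 11 fell and 3 rose after Dex in MM1S, and 12 fell and 3 rose in MM1S combo. Among them ERO1B, an oxidase that recharges disulfide isomerases, rose after TAK-981, with a log2FC of 2.35 in MM1S (SE 0.12, adjusted p = 1.24e-11) and 2.43 in MM1R (SE 0.12, adjusted p = 2.39e-11), while its paralog ERO1A fell in MM1S (log2FC -0.62, adjusted p = 2.71e-06). FKBP11, a prolyl isomerase of secretory cells, fell in MM1S by 0.68 on the log2 scale after TAK-981, 0.93 after Dex and 1.44 in combo. Of 15 other ERAD genes 5 fell and 2 rose after TAK-981 in MM1S, 9 fell and 1 rose in MM1R, 4 fell and 3 rose after Dex in MM1S, and 9 fell and 1 rose in MM1S combo. Of 27 other vesicle coat and cargo genes 8 fell and 1 rose after TAK-981 in MM1S, 11 fell and 2 rose in MM1R, 8 fell and 3 rose after Dex in MM1S, and 15 fell and 3 rose in MM1S combo. Of all genes 23.7% fell and 25.2% rose after TAK-981 in MM1S, and 27.6% and 25.8% in MM1R. After Dex in MM1S 21.5% fell and 20.8% rose, and in MM1S combo 29.5% and 30.8%. Some counts of genes that fell are near these shares. Examples are 8 of 27 vesicle genes after TAK-981 in MM1S and 4 of 15 ERAD genes after Dex. Such counts are not read as a trait of their list.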

How the data were processed

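RNA was sequenced from MM1S and MM1R cells in 8 groups of 2 libraries. The authors deposited raw counts of reads per gene with a gene length in kilobases, and the submitters' processing notes name bcl2fastq 2.18.0.12, STAR 2.6.0, HTSeq 0.6.0 and edgeR 3.28.1 with the human build hg19. Use of strand is not given in the sources used here.

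Counts of all 16 libraries were fitted together with 1 mean per group in R 4.3.3 (edgeR 4.0.16, limma 3.58.1), with filterByExpr, TMM scaling and robust quasi-likelihood tests on 8 residual degrees of freedom. The test runs on counts, so the total counts per library set its precision. P-values were adjusted by Benjamini-Hochberg over 14215 genes at a threshold of 0.05 in each of 14 comparisons. CPM values are shown without a prior count. The script was tested on simulated data.

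The members and all lists were chosen with earlier results of these data known. Values per library are given for 14 genes named by rule and for up to 4 called genes in each direction per comparison. Other pathway genes are counted by list, with at most 3 named per direction by adjusted p beside XBP1, ATF4 and DDIT3. Motifs were matched in RefSeq windows of another build than the counts. Alternatives were other scaling, no filter, DESeq2 1.42.0, fits of only the groups compared, a replicate block, a fold change limit and leaving out each library, where a lone library is assumed to vary like the other groups.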

Additional observations from a re-analysis of the deposited data

Results flagged for a closer look

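For 1 gene of the 53 the test of the difference itself separated the TAK-981 responses of MM1S and MM1R. Over all genes 3.19% had a higher and 0.978% a lower change in MM1R. The gene, DERL3, had a log2 difference of -0.78 (MM1R minus MM1S), with opposite directions of change in the lines. It overlaps SMARCB1 on the opposite strand, and use of strand in the counting is not given.

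The response to Dex differed between the lines for 40 of the 53 genes, where 15% of all genes had a higher and 13.1% a lower change in MM1R. Of those named by rule, the log2 difference (MM1R minus MM1S) was 0.44 for HSPA5, 0.76 for HSP90B1, 0.35 for HYOU1, 0.57 for DNAJB9, 0.65 for SDF2L1 and 0.89 for MANF among the chaperones. It was 0.70 for PDIA4, 0.36 for CALR, 0.34 for SEC61A1, 0.89 for SPCS3 and 1.02 for LMAN1. In ERAD it was 1.06 for SEL1L, -1.26 for HERPUD1, -0.30 for SYVN1 and -0.69 for DERL3. For the sensors it was -0.29 for ERN1, -0.35 for ATF6 and 0.46 for EIF2AK3. HSPA5, CALR, HYOU1, SDF2L1, ATF6, SYVN1 and ERN1 lost this call in 2 to 5 of 8 fits that left out 1 library. With 2 libraries per group no library could be examined as an outlier of its group.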

How the results depend on the processing

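Counts of called genes among the 53 are given as higher and lower. The limit on fold change was applied to the 53 only, so no share of all genes stands beside those counts. Values of single genes were labelled only for genes chosen by rule, among the 14 and the up to 4 called per direction and comparison. Of these values under an alternative, 1757 kept their direction and side of the threshold, 92 lost and 16 gained a call, and 1 reversed. The reversal was CALR after TAK-981 in MM1S, from -0.163 to 0.0527 on leaving out 1 library. The latter was without MM1S TAK-981 replicate 1, and with all libraries the value was -0.05 and not called. Calls lost by the rest of the 53 are not in these totals. Under RLE the labelled values lost 0 calls, whereas DERL1, OS9 and SEC62 each lost 1 in a comparison outside the labelled ones. Scaling by RLE or library size alone turned no call around. Counting only calls of 1 or more in size on the log2 scale, 0 and 0 were left for TAK-981 in either line, for combo against vehicle and against Dex in MM1R, between untreated lines and for departure from the sum, 1 and 3 for Dex in MM1S, 0 and 16 for combo in MM1S, 0 and 4 against TAK-981 and 0 and 1 against Dex there, 0 lower for the line difference in TAK-981 and 2 and 1 for that in Dex. In fits of only the groups compared 4 were higher after TAK-981 in MM1S, 8 in MM1R, 8 in MM1R combo against vehicle and 8 against Dex, 0 in MM1S combo against Dex, and 3 were lower than the sum. Without a filter 2 were higher in MM1S combo against Dex, 1 higher and 2 lower in the line difference for TAK-981 and 8 higher than the sum. With library size only 9 were higher than the sum. Over all genes, fits of only the groups compared called 2356 higher and 2826 lower for TAK-981 in MM1S, against 3586 and 3374 in the main fit. For TAK-981 in MM1R they called 4507 and 4819, against 3666 and 3926. For departure from the sum in MM1S they called 370 and 364, against 777 and 1348. Without a filter edgeR called 18 higher and 12 lower of all genes for Dex in MM1R, with 0 of the 53. The main fit did not pair the samples by replicate number, and whether they were paired was not settled. Of 12 pairs of groups within lines 2 had correlated deviations over 0.1, from -0.0134 to 0.263. Within MM1S every pair was positive, from 0.0162 to 0.263. A replicate block raised the calls over all genes. For the line difference in TAK-981 they went from 453 higher and 139 lower to 1114 and 947. Of the 53, with the block, 4 were higher in MM1S combo against Dex and 8 in MM1R combo against Dex. With it 2 were higher and 6 lower in the line difference for TAK-981, and 8 were higher than the sum. Leaving out 1 library gave 5 to 8 higher and 32 to 35 lower for TAK-981 in MM1S, 3 to 5 and 33 to 34 in MM1R, 5 to 6 and 37 to 39 for Dex in MM1S and 0 and 0 in MM1R. Combo against vehicle gave 4 to 5 and 43 in MM1S (4 without MM1S vehicle replicate 1) and 4 and 34 to 35 in MM1R, against TAK-981 3 to 4 and 38 to 42 in MM1S and 0 and 0 in MM1R, and against Dex 0 to 3 and 28 to 32 in MM1S and 4 and 32 to 33 in MM1R. The untreated lines gave 22 to 23 and 5 to 6, the line difference 0 to 2 and 1 to 7 for TAK-981 (2 and 7 without MM1S TAK-981 replicate 1) and 26 to 33 and 2 to 4 for Dex (2 lower without MM1R vehicle replicate 2), and departure from the sum 4 to 10 and 5 to 14 (5 lower without MM1S vehicle replicate 1, Dex replicate 2 or combo replicate 1). For TAK-981 in MM1R 3 were higher without vehicle replicate 1 or 2 or TAK-981 replicate 2. The causes were not tested.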
